A study of Homo sapiens with 4 samples.

Results

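Cytochrome P450 genes and UDP-glucuronosyltransferase (UGT) genes were examined in RNA sequencing (RNA-seq) counts of Sorafenib-treated cells labelled HepG2. Genes were taken by symbol: CYP with a family number, a subfamily letter and a gene number, or UGT1, UGT2, UGT3 or UGT8 with an optional A or B and a gene number. The cholesterol synthesis gene *CYP51A1* and pseudogene symbols ending in P were left out, and *UGT8*, which carries no gene number after its family, was not taken by this pattern. The pattern found 76 of the 28278 genes in the table, of which 55 were P450 genes and 21 were UGT genes.

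HepG2, the cell line named in the labels, is a human hepatocellular carcinoma line. The cells were infected with lentivirus carrying Cas9 and either a control sgRNA (control) or a sgRNA against *USP22* (sgUSP22), selected with puromycin and kept as stable populations rather than single clones, and all of them received 10 µM Sorafenib, a multikinase inhibitor used against liver cancer, for 24 h. No library without Sorafenib was analysed here. There were 2 libraries per group with 62030307 to 64728272 counts each, and no source used here ties the replicates to separate cultures, so that p-values measure the spread between these libraries, which may be technical. The *USP22* transcript had 16450 and 16537 counts in control and 20279 and 20368 counts in the sgUSP22 libraries, so it was not lower in the libraries labelled sgUSP22, and a transcript count does not measure whether the gene was cut. The study reports that Western blots showed the efficiency of its *USP22* knockout at the protein level, which RNA counts do not measure. The hepatocyte identity was checked with 24 marker genes, of which 12 had no count in any library, among them *ALB*, *APOA1*, *APOB* and *TTR*, *AFP* had 4, 0, 4 and 0 counts, and only *AMBP*, *ASGR1* and *CPS1* passed the filter on low counts. The summed level of these 24 genes was 979 to 1020 CPM (counts scaled to a common library size) in control and 1302 to 1332 CPM in sgUSP22 libraries, nearly all of it *CPS1*. These values go against the hepatocyte origin in the label, since HepG2 is known for making albumin, apolipoproteins and alpha-fetoprotein, so every result here, the undetected genes included, is one of these libraries and not shown to be one of HepG2. The epithelial genes *KRT8* and *KRT18* and the mesenchymal gene *VIM* had at least 38104 counts in every library, *EPCAM* had 4 counts in control replicate 2 only, *CDH1* was at 0, and of 5 blood cell genes 4 were listed at 0 throughout. Of all 39 markers, 9 passed the filter and were tested as described below. Of these, 1 was called higher in sgUSP22, against 8.88% of all tested genes, and 1 lower, against 7.25%. The mesenchymal gene *FN1* was higher (279.5 against 610.7 CPM, log2 fold change 1.13, edgeR adjusted p = 8.85e-09). The hepatocyte gene *ASGR1* was lower (3.12 against 1.77 CPM, log2 fold change -0.82, edgeR adjusted p = 0.00649). By adjusted p alone 7 of the 9 passed, against 52.5% of all tested genes. *VIM*, *KRT8* and *KRT18* were lower without reaching 1.5-fold (log2 fold changes -0.39, -0.37 and -0.43). The part of these differences in the results below was not tested. In bulk RNA, fewer cells with a transcript and less transcript per cell cannot be told apart.

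P450 enzymes are haem proteins that insert oxygen into their substrates with electrons from a reductase. The xenobiotic families oxidise drugs and pollutants in the liver, while other families act on endogenous lipids such as bile acids, vitamin D, retinoic acid, steroid hormones and fatty acids. UGT enzymes then join glucuronic acid to drugs, bilirubin and hormones so that these can be excreted. Transcription of the xenobiotic genes is driven by ligand-activated factors, namely the aryl hydrocarbon receptor (AHR) with its partner ARNT, and the nuclear receptors PXR (*NR1I2*) and CAR (*NR1I3*). Sorafenib itself is oxidised mainly by CYP3A4 and glucuronidated by UGT1A9.

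The sequences upstream of 3 genes discussed below are shown as a description, and no result rests on them. *UGT1A7* and *CYP2U1* had the largest called differences in each direction, and *CYP1A1* is the textbook target of AHR. Each is the 250 bases before the RefSeq transcription start on GRCh38.p14, read 5′ to 3′ on the strand of the gene, with capitals marking the core of the xenobiotic response element bound by AHR and ARNT, GCGTG, or CACGC on the other strand.
*UGT1A7* (chr2:233681651-233681900, plus strand): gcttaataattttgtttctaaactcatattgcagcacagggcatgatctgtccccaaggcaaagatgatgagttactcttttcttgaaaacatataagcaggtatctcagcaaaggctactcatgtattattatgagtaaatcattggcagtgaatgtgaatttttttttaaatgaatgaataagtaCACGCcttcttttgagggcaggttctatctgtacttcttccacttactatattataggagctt
*CYP1A1* (chr15:74725529-74725778, minus strand): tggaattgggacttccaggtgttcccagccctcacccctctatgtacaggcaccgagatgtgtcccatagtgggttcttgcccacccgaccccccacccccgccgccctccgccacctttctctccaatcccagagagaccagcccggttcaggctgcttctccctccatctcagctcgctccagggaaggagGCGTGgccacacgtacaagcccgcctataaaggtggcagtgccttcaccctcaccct
*CYP2U1* (chr4:107931299-107931548, plus strand): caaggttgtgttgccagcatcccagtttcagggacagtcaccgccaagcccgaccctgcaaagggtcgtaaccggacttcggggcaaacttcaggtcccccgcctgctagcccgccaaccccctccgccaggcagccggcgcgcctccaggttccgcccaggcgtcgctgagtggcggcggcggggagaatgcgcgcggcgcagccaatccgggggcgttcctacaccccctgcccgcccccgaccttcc
The core occurred 1 time upstream of *UGT1A7*, 63 bases before the start, and 1 time upstream of *CYP1A1*, 57 bases before it, beside a TATAAA box in *CYP1A1* only. Upstream of *CYP2U1*, a window of 70.4% G and C, these letters did not occur. The core was present in 32.2% of all 35116 RefSeq promoter windows and in 15 of the 70 windows of the 55 P450 and UGT genes that had an entry, or 21.4%. The nuclear receptor half-site AGGTCA, or TGACCT on the other strand, was in 19 of these 70 windows, or 27.1%, against 12.1% of all windows, and the TATAAA box was also in 27.1%, against 6.80% of all windows. These windows share sequence within the gene clusters, and a match of letters is a description and not a bound site.

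Most drug metabolism genes were not detected in either group. Of the 76 genes, 50 were listed at 0 in all 4 libraries, or 65.8%, against 32.7% of all genes in the table. A further 10 had counts below the filter, and 16 passed it, or 21.1%, against 53.6% of all genes. The filter asks for about 10 counts in at least 2 libraries (edgeR's filterByExpr) and stands here for expressed. If counts are tallies of reads, a count of 0 allows up to 3 counts, counting error only. This is 0.0463 to 0.0484 CPM depending on the library. Whether they are such tallies is not known, and the smallest nonzero value among the 76 genes was 3. A listed 0 may thus stand for more reads than this floor. A listed 0 is therefore not evidence that a transcript was absent.

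Among the 19 xenobiotic P450 genes, 13 were listed at 0 throughout, including *CYP3A4*, the main drug-oxidising P450 of adult liver, *CYP2C8*, *CYP2C19*, *CYP2D6*, *CYP2B6*, *CYP2A6* and *CYP1A2*. The ethanol-oxidising *CYP2E1* had 3 counts in sgUSP22 replicate 2 and 0 elsewhere. Those that passed were *CYP1A1*, *CYP1B1*, *CYP2D7*, *CYP3A5* and *CYP3A7*. All 10 UGT2 genes were at 0, including *UGT2B7* and *UGT2B15*, as were 7 of the 9 UGT1A genes, including *UGT1A1*, the bilirubin transferase, and *UGT1A9*. The UGT3 gene *UGT3A1* had 4 counts in sgUSP22 replicate 2 only, and *UGT3A2* was at 0. So *CYP3A4* and *UGT1A9*, named above for Sorafenib, were both listed at 0 in every Sorafenib-treated library. For *UGT1A9* this 0 is uncertain, since it shares 4 exons with *UGT1A7*. How reads in these exons were divided among the UGT1A genes is not known.

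The genes with endogenous substrates were detected more unevenly. Of the 14 fatty acid and eicosanoid P450 genes, 10 were at 0, and *CYP2U1* and *CYP4V2* passed. Among bile acid and oxysterol P450 genes, *CYP7A1*, the rate-limiting enzyme of bile acid synthesis, *CYP7B1*, *CYP8B1* and *CYP46A1* were at 0. *CYP27A1* had 4 to 11 counts and *CYP39A1*, an oxysterol hydroxylase, passed. In the steroid group *CYP11A1*, the mitochondrial enzyme that cleaves the cholesterol side chain, was the 1 gene to pass, *CYP11B1*, *CYP11B2* and *CYP19A1* were at 0, *CYP17A1* had 4 counts in control replicate 1 only and *CYP21A2* had 4 counts in sgUSP22 replicate 2 only. Of the retinoid genes *CYP26B1* and *CYP27C1* passed, and *CYP26A1* and *CYP26C1* were at 0. Both vitamin D activating genes, *CYP2R1* and *CYP27B1*, passed, and the inactivating *CYP24A1* had 7 to 10 counts. *CYP2S1* and *CYP20A1* passed among genes with no settled substrate, and *CYP2W1* had 0, 6, 3 and 17 counts in control replicates 1 and 2 and sgUSP22 replicates 1 and 2.

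Detection also differed by position, in a description made after the values were seen. Of the 55 genes with another of the 76 within 500 kb, such as the UGT1A genes on chromosome 2 and the CYP2 and CYP4F genes on chromosome 19, 44 were at 0 and 7 passed. The 21 genes with no such neighbour included 6 at 0 and 9 that passed. On chromosome 10, where the CYP2C genes lie, 0 of 8 passed, and on chromosome 2, 5 of 14 did. Genes of 1 cluster share their surroundings and often their sequence, and these counts were not tested.

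Levels of different genes were compared as CPM per kb of merged exon length, the mean of 2 libraries ± SD. This length joins all annotated exons of a gene and can exceed that of the transcript expressed, so the places depend on it. Without division by length, *CYP26B1* was above *CYP2S1* in control, with means of 21.2 and 19.3 CPM. In control cells *CYP2S1*, a P450 found mainly outside the liver, was the most abundant, with 7.11 ± 0.28 CPM per kb, followed by *CYP26B1* with 4.38 ± 0.0282 CPM per kb. *CYP27C1* (1.99 ± 0.307 CPM per kb) and *CYP11A1* (1.92 ± 0.121 CPM per kb) overlapped between libraries, and *CYP39A1* had 1.75 ± 0.0123 CPM per kb. *CYP2U1* had 1.15 ± 0.024 CPM per kb and *CYP27B1* 0.744 ± 0.113 CPM per kb. The neighbours *CYP20A1* and *CYP2R1* overlapped, at 0.453 and 0.439 CPM per kb. From *CYP1A1* down to *CYP4V2* each gene overlapped with the next, between 0.170 and 0.0425 CPM per kb. *UGT1A7* was last, at 0.0078 CPM per kb.

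In sgUSP22 cells *CYP2S1* and *CYP26B1* again held the first places, with 7.50 ± 0.186 and 3.05 ± 0.144 CPM per kb. *CYP39A1* followed, at 2.42 ± 0.186 CPM per kb. *UGT1A7* moved from place 16 to place 9, at 0.557 ± 0.0716 CPM per kb, where it overlapped with its neighbours *CYP20A1* and *CYP2U1*. *CYP2U1* moved from place 6 to place 10. The 76 genes together made up 82.2 and 83.4 CPM of the control libraries and 82.3 and 84.0 CPM of the sgUSP22 libraries, so that the summed level overlapped between the groups. Within roles the sums did not all do so. Xenobiotic P450 genes summed to 2.97 and 3.22 CPM in control and 4.73 and 4.52 CPM in sgUSP22 libraries, and UGT1A genes to 0.0656 and 0.112 CPM against 2.13 and 2.56 CPM, almost all of it 1 gene. Fatty acid and eicosanoid genes summed to 7.25 and 7.23 CPM against 3.53 and 3.81 CPM, most of it *CYP2U1*, and retinoid genes to 30.5 and 32.6 CPM against 25.7 and 26.4 CPM. Steroid hormone genes overlapped, at 6.28 and 6.80 CPM against 6.53 and 5.995 CPM. The groups also did not overlap for vitamin D genes (5.08 and 3.99 against 6.22 and 5.87 CPM) or bile acid and oxysterol genes (5.51 and 5.64 against 8.04 and 7.17 CPM). The same held for genes with no settled substrate (24.5 and 23.8 against 25.5 and 27.7 CPM). Of all 15150 single genes tested below, 75.9% did not overlap. These sums were not tested.

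**Figure D1:**
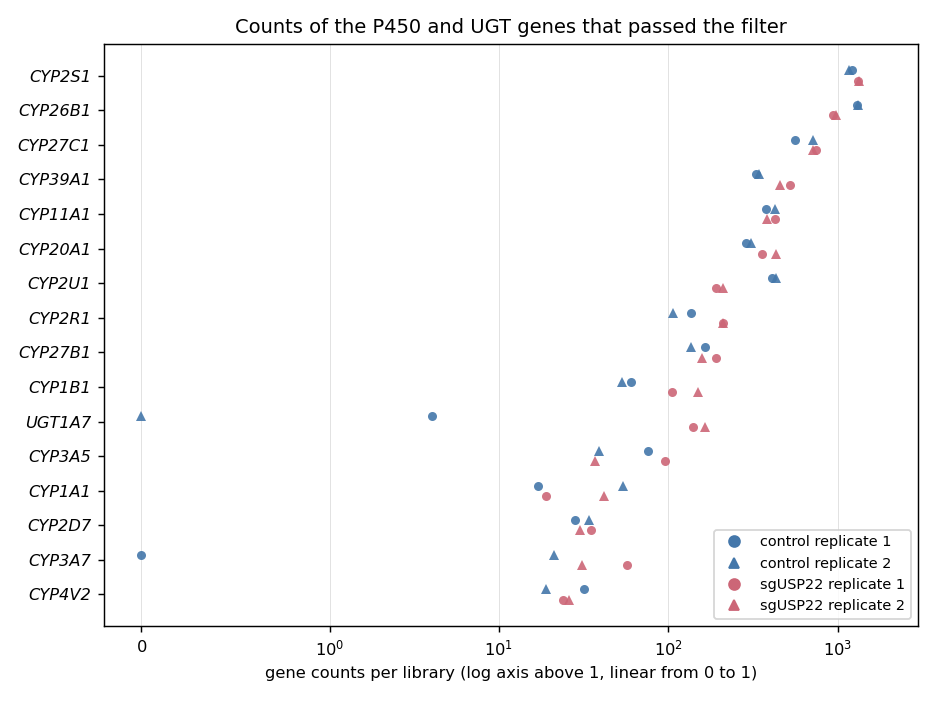
Gene counts in each of the 4 libraries (horizontal axis, log scale above 1) for the 16 P450 and UGT genes that passed the filter, ordered by mean count, with control in blue, sgUSP22 in red and replicates 1 and 2 as circles and triangles. *UGT1A7* sits at 4 and 0 counts in control and 140 and 165 counts in sgUSP22 libraries, and *CYP2U1* is lower in both sgUSP22 libraries.

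The difference between sgUSP22 and control libraries was then tested across all 15150 genes that passed the filter. The test was the quasi-likelihood test of edgeR, with p-values adjusted by Benjamini-Hochberg over all of these genes. Genes with an adjusted p under 0.05 that also differed by 1.5-fold or more were called. Of the 16 genes, 3 were called higher in sgUSP22 (*UGT1A7*, *CYP1B1* and *CYP2R1*), against a background of 8.88% of all tested genes. 1 gene was called lower (*CYP2U1*), against a background of 7.25%. Together 4 of 16 were called, against a background of 16.1%, and nothing about these genes as a class is read from that count. By adjusted p alone 4 were higher, against 26.8% of all tested genes, and 2 lower, against 25.8%, which together is 6 of 16 against 52.5%. The groups did not overlap in 9 of 16 genes, against 75.9% of all tested genes. *UGT1A7* passed the filter only through the sgUSP22 libraries, where it is high. *CYP3A7*, with 0 and 21 counts in control, could not have passed through the control libraries alone either. A count or median that includes these genes gives no support to a direction. The median log2 fold change of the 16 genes, *UGT1A7* and *CYP3A7* included, was 0.12, and that of all tested genes was 0.001.

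**Figure D2:**
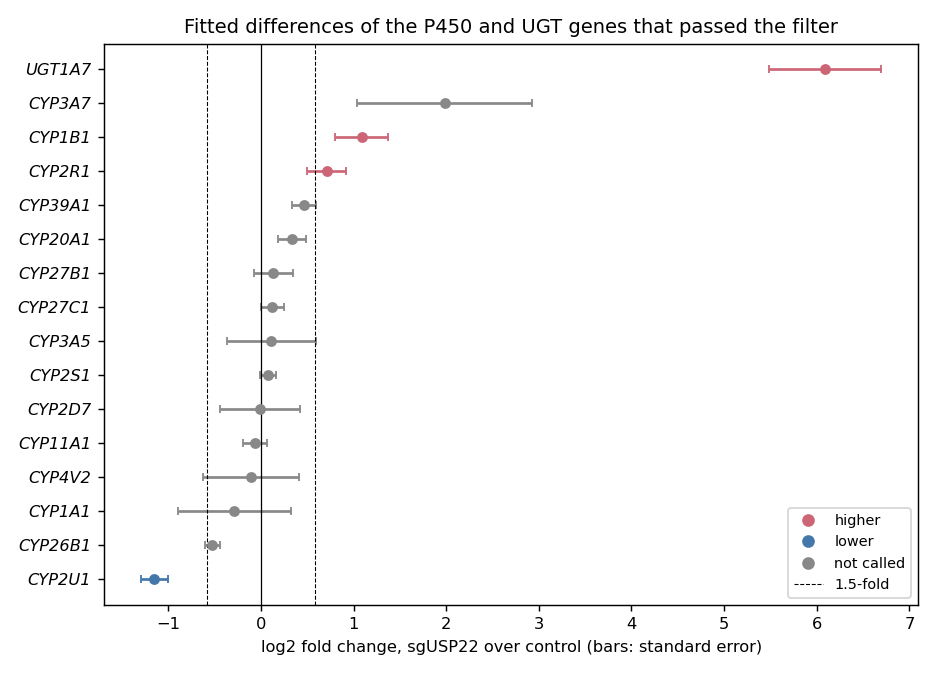
Fitted log2 fold change of sgUSP22 over control (horizontal axis) with its standard error (bars) for the 16 genes that passed the filter, coloured by call, with dashed lines at 1.5-fold. Only *UGT1A7*, *CYP1B1* and *CYP2R1* were called higher and *CYP2U1* lower, and *CYP26B1* (-0.52) lies just inside the line.

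*UGT1A7* encodes a glucuronosyltransferase of the stomach and upper airway that is not typical of liver. It had 4 and 0 counts in control and 140 and 165 counts in the sgUSP22 libraries. Both sgUSP22 libraries were thus high and the groups did not overlap. In CPM the means were 0.0328 ± 0.0464 (SD, n = 2) and 2.34 ± 0.301 (SD, n = 2). The ratio of summed counts was 72.2, with an exact 95% interval of 27.9 to 267 that covers counting error only. This interval takes the counts as tallies of reads, which is not known. The edgeR adjusted p was 2.44e-05.

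*UGT1A7* spans chr2:233681901-233773300 (hg38, plus strand). The 9 UGT1A genes each have their own first exon, which encodes the substrate-binding part of the enzyme, and splice it to the same 4 further exons. In *UGT1A7* the own exon (233681901 to 233682792) holds 892 bases and the shared exons hold 1479 bases. Reads in the shared exons can belong to any of the 9 genes, and the counts do not show how many came from the first exon of *UGT1A7*. Of the other genes of the cluster, *UGT1A6* had 7 counts in control replicate 2 and 0 elsewhere, and the remaining 7 were listed at 0. The count therefore shows more transcript of the UGT1A locus in sgUSP22 cells, while its assignment to *UGT1A7* is uncertain.

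**Figure D3:**
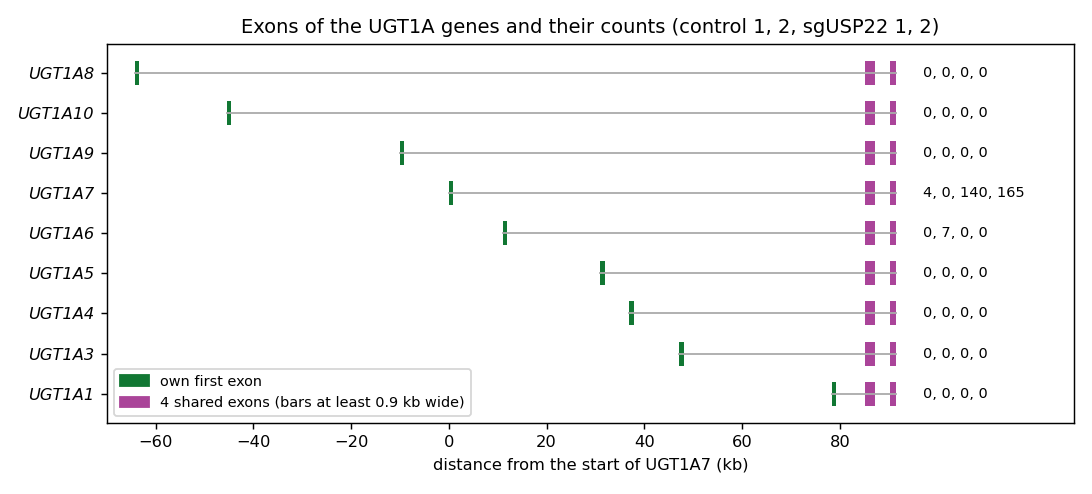
Exons of the 9 UGT1A genes against distance from the start of *UGT1A7* (kb), with own first exons in green and the 4 shared exons in purple, and at the right the counts in control replicates 1 and 2 and sgUSP22 replicates 1 and 2. Exons are drawn at least 0.9 kb wide, so the first 3 shared exons run together, and *UGT1A7* is the gene that carries 140 and 165 counts.

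*CYP2U1*, a fatty acid hydroxylase of brain and thymus whose loss causes a hereditary spastic paraplegia, was the 1 gene called lower. It had 410 and 432 counts in control and 191 and 209 counts in the sgUSP22 libraries. Both sgUSP22 libraries were less than any control library. Its level was 6.83 ± 0.142 (SD, n = 2) CPM in control and 3.07 ± 0.234 (SD, n = 2) CPM in sgUSP22 cells, a log2 fold change of -1.15 ± 0.15 (SE, edgeR adjusted p = 0.000111). The gene spans chr4:107931549-107953461 (hg38, plus strand). Its antisense gene *CYP2U1-AS1* overlaps it in the annotation and was not among the symbols of the table. The strand setting of the counts is not given in the sources used here. The other fatty acid P450 that passed, *CYP4V2*, had 32 and 19 counts in control and 24 and 26 counts in sgUSP22 libraries, which overlap, and its log2 fold change had a 95% interval of -1.26 to 1.05. *CYP4X1*, below the filter, was listed at 0 in both control libraries and had 9 and 11 counts in the sgUSP22 libraries. Its summed sgUSP22 level was 6.31-fold that of a floor of 3 counts over the control group. This ratio takes the counts as tallies of reads, allows no counting error on the sgUSP22 counts and is not a lower limit. It was not tested in the edgeR fit used here. Without the filter edgeR did not call it (adjusted p = 0.0572), whereas DESeq2 did (adjusted p = 0.038), so its call depended on the tool.

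*CYP1B1* oxidises oestrogens and polycyclic aromatic hydrocarbons and is induced through AHR. It had 60 and 53 counts in control and 105 and 149 counts in the sgUSP22 libraries. The groups did not overlap, although the sgUSP22 libraries differed from each other by more than the control libraries did. Its log2 fold change was 1.09 ± 0.29 (SE, edgeR adjusted p = 0.00925). The call was lost without sgUSP22 replicate 2, which left a log2 fold change of 0.80 (edgeR adjusted p = 0.0981), and when the test was made against a 1.5-fold change. *CYP1B1* spans chr2:38066973-38109902 (hg38, minus strand), and *RMDN2*, annotated on the opposite strand there, had 92 and 118 counts in control and 116 and 75 counts in sgUSP22 libraries, which overlap.

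The paralog *CYP1A1*, the classical AHR target whose promoter is shown above, had 17 and 54 counts in control and 19 and 42 counts in sgUSP22 libraries. Replicate 2 was the higher one in both groups, and the groups overlap. Its log2 fold change was -0.29 with a 95% interval of -1.65 to 1.08, so the data did not resolve a change of about 2-fold in either direction. The receptor gene *AHR* had 5089 and 5782 counts in control and 4503 and 4257 counts in sgUSP22 libraries (log2 fold change -0.39, edgeR adjusted p = 0.000246), a decrease below the 1.5-fold threshold. Of the 4 other AHR targets listed, *AHRR*, the repressor of AHR, and *TIPARP*, an ADP-ribosyltransferase that limits AHR activity, were called lower, *ALDH3A1*, an aldehyde dehydrogenase, was called higher, and *NQO1* was not called, where 16.1% of all tested genes were called. *AHRR* had 1980 and 1946 counts in control and 802 and 981 counts in sgUSP22 libraries, a log2 fold change of -1.22 ± 0.10 (SE, edgeR adjusted p = 8.94e-06). *TIPARP* had 7819 and 8464 counts in control and 4909 and 4795 counts in sgUSP22 libraries (log2 fold change -0.82, edgeR adjusted p = 4.31e-07). *ALDH3A1* had 396 and 329 counts in control and 732 and 697 counts in sgUSP22 libraries (log2 fold change 0.90, edgeR adjusted p = 0.000279). AHR targets thus moved in both directions in these libraries, and the groups did not overlap for any of the 3 called.

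**Figure D4:**
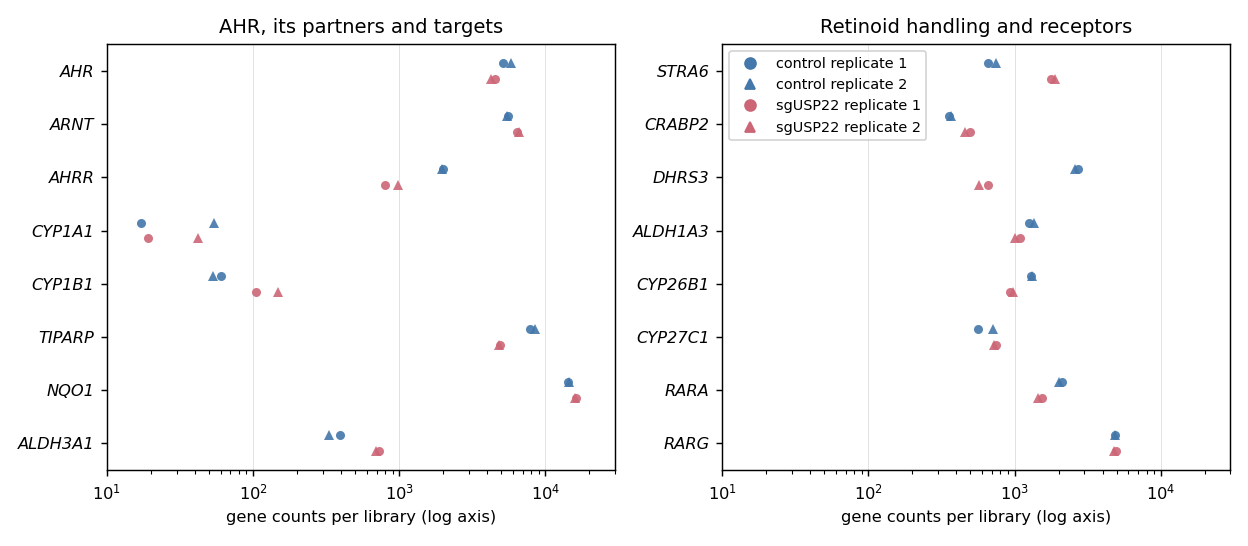
Gene counts per library (log axis) of AHR, its partner and targets (left) and of retinoid handling genes and receptors (right), with control in blue, sgUSP22 in red and replicates 1 and 2 as circles and triangles. *AHRR*, *TIPARP* and *DHRS3* are lower and *CYP1B1*, *ALDH3A1* and *STRA6* higher in both sgUSP22 libraries, while *CYP1A1* overlaps between the groups.

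The remaining xenobiotic P450 genes had few counts and were not called. *CYP3A5* had 76 and 39 counts in control and 95 and 37 counts in sgUSP22 libraries, with replicate 1 the higher one in both groups, and a 95% interval for the log2 fold change of -0.96 to 1.19. *CYP3A7*, the form of fetal liver, had 0 and 21 counts in control and 57 and 31 counts in sgUSP22 libraries, which did not overlap, but its log2 fold change of 1.98 had a standard error of 0.95 (edgeR adjusted p = 0.107). Without control replicate 2, which leaves the control group at 0, it was called, with a fitted log2 fold change of 8.43 that is no measured size. The readthrough gene *CYP3A7-CYP3A51P*, which shares exons with *CYP3A7*, had 14 counts in control replicate 1 and 0 in the other libraries, so the split of reads between both symbols is uncertain. *CYP2D7*, a close copy of *CYP2D6*, had 28 and 34 counts in control and 35 and 30 counts in sgUSP22 libraries, and its reads could belong to either copy.

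In the retinoid group 1 gene passed by adjusted p and none was called. *CYP26B1*, which hydroxylates and so inactivates retinoic acid, had 1298 and 1316 counts in control and 937 and 984 counts in sgUSP22 libraries. Both sgUSP22 libraries were lower, and the difference was larger than the spread between replicates, with a log2 fold change of -0.52 ± 0.085 (SE, edgeR adjusted p = 0.00057). It passed the p-value threshold and not the 1.5-fold threshold. *CYP26B1* spans chr2:72129238-72147862 (hg38, minus strand). *CYP27C1*, which desaturates retinol, had 563 and 717 counts in control and 749 and 719 counts in sgUSP22 libraries, and its log2 fold change lay in a 95% interval of -0.15 to 0.40.

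Other genes of retinoid handling were called. *DHRS3*, which reduces retinal to retinol and is itself induced by retinoic acid, had 2735 and 2595 counts in control and 659 and 568 counts in sgUSP22 libraries, a log2 fold change of -2.20 ± 0.088 (SE, edgeR adjusted p = 8.2e-08). *STRA6*, the receptor that takes up retinol from its carrier, had 661 and 745 counts in control and 1776 and 1900 counts in sgUSP22 libraries, a log2 fold change of 1.31 ± 0.091 (SE, edgeR adjusted p = 2.37e-06). These were the 2 called, 1 in each direction, among the 4 of 8 retinoid genes that passed the filter, against backgrounds of 8.88% higher and 7.25% lower, in a list chosen with earlier results of these data known. *ALDH1A3*, which makes retinoic acid, had a log2 fold change of -0.39 and *CRABP2*, its carrier, of 0.32, and neither was called. Of the retinoic acid receptors, *RARA* had a log2 fold change of -0.54 (edgeR adjusted p = 0.000175), below 1.5-fold, *RARG* of -0.07, and *RARB* had 4 to 8 counts.

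Both vitamin D activating genes were detected. *CYP2R1*, the main enzyme that starts vitamin D activation in the liver, had 137 and 106 counts in control and 209 and 211 counts in sgUSP22 libraries. The groups did not overlap, and the log2 fold change was 0.71 ± 0.21 (SE, edgeR adjusted p = 0.016). This call depended on the settings: with DESeq2 the adjusted p-value was 0.0652 at a log2 fold change of 0.71, and once GC and length trends were removed the log2 fold change was 0.58, just under 1.5-fold. It was also lost when control replicate 2, sgUSP22 replicate 1 or sgUSP22 replicate 2 was left out, with log2 fold changes of 0.52, 0.72 and 0.69. The gene spans chr11:14877440-14892231 (hg38, minus strand). *CYP27B1*, which makes the active hormone, had 165 and 136 counts in control and 192 and 158 counts in sgUSP22 libraries, which overlap. Its log2 fold change had a 95% interval of -0.33 to 0.60. *METTL1*, whose annotation overlaps that of *CYP27B1* on the same strand to an extent not measured here, had 584 to 880 counts. The vitamin D receptor gene *VDR* had a log2 fold change of -0.29 (edgeR adjusted p = 0.00216), below 1.5-fold.

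*CYP39A1*, which hydroxylates oxysterols on the way to bile acids, had 330 and 341 counts in control and 521 and 459 counts in sgUSP22 libraries. The groups did not overlap, and its log2 fold change of 0.47 ± 0.13 (SE, edgeR adjusted p = 0.0119) passed the p-value threshold and not the fold threshold. The oxysterol receptor gene *NR1H2*, which encodes LXR beta, was called higher, with 1097 and 1134 counts in control and 2527 and 2616 counts in sgUSP22 libraries (log2 fold change 1.13, edgeR adjusted p = 1.09e-06). Its paralog *NR1H3* had a log2 fold change of 0.24 and was not called, and the bile acid receptor *NR1H4* with its target *NR0B2* was at 0 in all libraries.

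The other 3 genes showed no call. *CYP2S1*, the most abundant per kb, had 1209 and 1170 counts in control and 1313 and 1336 counts in sgUSP22 libraries. The 95% interval for its log2 fold change was -0.11 to 0.26. *CYP20A1*, an orphan P450, had 286 and 307 counts in control and 359 and 432 counts in sgUSP22 libraries (log2 fold change 0.34, edgeR adjusted p = 0.0839). *CYP11A1* had 379 and 424 counts in control and 429 and 383 counts in sgUSP22 libraries, which overlap, with an interval of -0.36 to 0.23. Expressed mitochondrial P450 genes, which were *CYP11A1*, *CYP27B1* and *CYP27C1*, thus had fitted log2 fold changes of -0.06, 0.14 and 0.12, and none was called by edgeR or DESeq2.

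Of the 9 electron donors and haem binding partners, 8 passed the filter and 0 were called, against a background of 16.1%, and 6 of the 8 passed by adjusted p alone, against 52.5%. *POR*, the reductase that serves all microsomal P450 enzymes, had 3447 and 3869 counts in control and 3344 and 3226 counts in sgUSP22 libraries (log2 fold change -0.23, edgeR adjusted p = 0.00604). *FDXR*, the first electron carrier of the mitochondrial enzymes, had 2391 and 2280 counts in control and 1827 and 1530 counts in sgUSP22 libraries, a log2 fold change of -0.56, while its partner *FDX1* had -0.06. The cytochrome b5 gene *CYB5A* was at 0 in all libraries and its mitochondrial counterpart *CYB5B* had 11942 to 12472 counts.

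For UDP-glucuronate, the sugar donor of the UGT enzymes, 1 of 5 genes was called higher and 1 lower, against backgrounds of 8.88% and 7.25%. *SLC35D1*, a carrier of this sugar into the endoplasmic reticulum, had 1729 and 1839 counts in control and 2825 and 2985 counts in sgUSP22 libraries (log2 fold change 0.63, edgeR adjusted p = 2.61e-05). *GUSB*, the lysosomal enzyme that removes glucuronic acid, had 6580 and 6564 counts in control and 4589 and 4592 counts in sgUSP22 libraries (log2 fold change -0.60, edgeR adjusted p = 2.31e-06). *GUSB* lay close to the 1.5-fold threshold and lost its call without control replicate 1 (log2 fold change -0.58), as *SLC35D1* did without sgUSP22 replicate 2 (0.57). *UGDH*, which makes the donor, had a log2 fold change of 0.03 with a 95% interval of -0.09 to 0.16.

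Of 24 nuclear receptors and other regulators, 18 passed the filter, 1 was called higher (*NR1H2*) and 1 lower (*AHRR*), against the same backgrounds. *NR1I2* was at 0 in all libraries, *NR1I3* had 30 to 46 counts and *HNF4A* had 4, 0, 9 and 0 counts, so that some factors known to drive the liver xenobiotic genes were at or near 0 beside genes that were themselves at 0. Their part in the low counts was not tested. Among 20 other phase I and II enzymes, 11 passed and 2 were called, both higher, against a background of 8.88% called higher, and no direction is read from 2 genes. *NAT1*, an arylamine acetyltransferase, had 25 and 10 counts in control and 131 and 131 counts in sgUSP22 libraries, a log2 fold change of 2.81 ± 0.41 (SE, edgeR adjusted p = 0.000272). *SULT1A3*, a sulphotransferase, had 378 and 315 counts in control and 564 and 598 counts in sgUSP22 libraries (log2 fold change 0.67, edgeR adjusted p = 0.0025), but 0.53 and no call without control replicate 2, and its reads may be divided with a near-identical gene copy. Among P450 and UGT genes outside the symbol pattern, *CYP51A1* had a log2 fold change of 0.30, *UGT8* of -0.03 and *TBXAS1* of 1.14 with 15 to 40 counts, and none of the 3 was called. Over all 72 of these genes, 52 passed, 6 were called higher and 4 lower, against the backgrounds of 8.88% and 7.25%.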

How the data were processed

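Polyadenylated RNA of cells labelled HepG2 was sequenced, giving 2 control and 2 sgUSP22 libraries. Per the labels and the study's methods, the authors aligned reads to hg38 with HISAT2 2.2.1 and deposited whole-number gene counts from StringTie 2.2.1. Whether these values are direct tallies of reads is not given in the sources used here. The annotation, strand setting and read length are not given in the sources used here. Columns were assigned by name, and 0 were left out.

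One edgeR 4.0.16 quasi-likelihood fit in R 4.3.3 covered the whole table, with TMM factors and filterByExpr at its minimum of 10 counts, with Benjamini-Hochberg adjustment over 15150 genes and the study's thresholds. Each standard error (SE) was taken from the fold change and its F statistic, and 95% intervals use the degrees of freedom of that test. CPM uses TMM-scaled library sizes. With counts taken as tallies of reads, replicates differed by more than sampling noise (mean chi-square per gene 7.91 in control, 8.44 in sgUSP22). Of 28278 symbols, 25763 matched GENCODE 44 on hg38, all 76 P450 and UGT genes among them. The genes, roles and lists were chosen with earlier results of these data known. Every P450 or UGT gene that passed the filter and every called pathway gene is named. Pathway genes given with values although not called, the motifs and the 500 kb distance were chosen after the values were seen. The procedures were tested on simulated data. Alternatives were DESeq2 1.42.0, scaling by RLE or by library size only, other filters (none, or a mean count of 50), the replicate block, no fold threshold, a test against 1.5-fold, removal of lowess trends (span 0.3) on GC content and length, and leaving out each library.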

Additional observations from a re-analysis of the deposited data

How the results depend on the processing

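Of the 4 called genes, *UGT1A7* and *CYP2U1* kept their calls under all 12 alternatives with a test, with log2 fold changes of 5.12 to 10.2 and -1.27 to -1.09, *CYP1B1* under 10 and *CYP2R1* under 6. The value of 10.2 came without control replicate 1, which leaves *UGT1A7* at 0 in the control group, and is no measured size. The number called higher was 3, and became 1 with the test against 1.5-fold. DESeq2 also called 3, with *CYP4X1*, which edgeR without a filter tested and did not call, in place of *CYP2R1*. The number called higher ranged from 1 to 3 with a library left out, the 1 without sgUSP22 replicate 2. The number called lower was 1 in these settings, and 2 without a fold threshold, which adds *CYP26B1*. The 16 expressed genes became 11 to 16 under other definitions of expressed and 17 to 20 with a library left out, where the filter asks for fewer libraries. More than 3 counts in every library also gave 16, but not the same genes. *UGT1A7* and *CYP3A7* dropped out, and *CYP24A1* and *CYP27A1* came in. Among pathway genes 6 were called higher and 4 lower, 3 higher with the test against 1.5-fold, 18 higher and 14 lower without a fold threshold, and 5 to 6 higher and 3 to 6 lower with a library left out. In the main fit 52 pathway genes were tested. Without a fold threshold 26.8% of all tested genes were higher and 25.8% lower, so no pathway change is read from those counts. *GUSB* lost its call with library size alone, and *SLC35D1* and *GUSB* after the GC and length correction.

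Of 108 comparisons of the 16 genes with another setting, 101 kept direction and call. The test against 1.5-fold and the setting without a fold threshold, which changed calls, are not among these 108. The direction reversed after the GC and length correction for *CYP11A1* (0.034), *CYP2D7* (0.14) and *CYP3A5* (-0.08), and with library size alone for *CYP2D7* (0.04), none of which was called. The cause was not tested. With 1 library left out, 12 of 64 reversed, all for uncalled genes, and the ranges were -0.15 to 0.005 for *CYP11A1*, -0.98 to 0.75 for *CYP1A1*, -0.011 to 0.30 for *CYP27B1*, -0.029 to 0.29 for *CYP27C1*, -0.13 to 0.12 for *CYP2D7*, -0.72 to 0.69 for *CYP3A5* and -0.45 to 0.33 for *CYP4V2*. A group left with 1 library is assumed to vary like the other group.

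Libraries share only a number and no known pairing: deviations from the group means correlated at 0.042 between libraries of the same number. Under the replicate block 4 genes were called higher and 1 lower, and the added gene was *CYP3A7* (log2 fold change 2.36, edgeR adjusted p = 0.0402), which was also called without control replicate 2 (8.43). Low counts limit these results, since 6 of the 16 genes had a library under 40 counts.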
